A study of Mus musculus with 12 samples.

Results

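The Hox genes encode homeodomain transcription factors that give segments along the head-to-tail axis of the embryo their identity. They lie in 4 clusters, and their order along the chromosome, numbered by paralogue from the 3′ end of the cluster, matches the order of their expression along the body axis. Their expression normally stops at the hindbrain, so the forebrain is a tissue in which the clusters are known to be silent, and silent Hox clusters are a textbook target of the Polycomb repressors. H3K4me3, the trimethylated lysine of histone H3 measured here, is found at active promoters and, together with the Polycomb mark H3K27me3, at promoters of silent developmental genes that are called poised or bivalent. The comparison made here asks how much H3K4me3 was called at 38 Hox genes, out of 21951 protein-coding genes of the GENCODE M21 annotation, in 4 regions of the embryonic mouse forebrain. The genes were chosen by name and not by a measured value of their own, with earlier results of these data known.

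The 4 regions were the medial, lateral and caudal ganglionic eminences (MGE, LGE and CGE), which are the sources of forebrain interneurons and striatal neurons, and the cortex (CTX). All samples were wild-type C57BL/6J embryos. The age used here is embryonic day 12.5, and the protocol in the labels also names embryonic day 14.5. H3K4me3 was profiled by CUT&Tag, in which an antibody brings a transposase to the modified chromatin and the released fragments are sequenced. The 12 samples (3 from MGE, 2 from LGE, 4 from CGE and 3 from CTX) were numbered as 2 replicates in each region, and the meaning of a second number in their titles is not given in the sources used here. Tissue of several embryos was pooled, and the authors merged the replicates before calling broad peaks, so each region was represented by 1 peak list. The protocol also states that equal numbers of nuclei from the 4 regions were pooled and does not say whether they were mixed; the lists are labelled by region and were taken as such, and a value per region rests on that reading. No replicate error could be computed for any value below, and no test between regions was made. Shares of genes carry Wilson 95% intervals, which cover counting error only and treat genes as independent, which neighbouring Hox genes are not. The lists held 25339 peaks (MGE), 17284 (LGE), 17752 (CGE) and 21442 (CTX), and how many reads support a given peak is not known. By the depths in the study's methods, CGE was sequenced most deeply and MGE least. The depth printed for a CTX replicate is malformed, and the other CTX replicate was deeper than either LGE replicate.

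Most region markers carried a peak, and the presence of a peak at them did not tell the 3 eminences apart. The telencephalon markers Six3 and Lhx2 had a peak within 2 kb of a transcription start site (TSS) in the 3 eminences, and in CTX Lhx2 had a peak and Six3 had none. The MGE markers Nkx2-1, Lhx6 and Lhx8 had a peak in every eminence and none in CTX. Of 5 cortex markers 4 had a peak in all 4 lists and Neurod6 had none in any. The 4 ganglionic eminence markers, 3 CGE markers and 3 LGE markers had a peak in all 4 lists. By median, none of the MGE, LGE, CGE and cortex marker sets was covered most in its own region. MGE markers had 2485 (MGE), 2830 (LGE), 3722 (CGE) and 0 (CTX) bases covered within 2 kb of a TSS. Cortex markers had 429 (MGE), 2371 (LGE), 2143 (CGE) and 1699 (CTX). LGE markers had 987 (MGE), 2425 (LGE), 4416 (CGE) and 725 (CTX), and CGE markers 1700, 2846, 2791 and 1741. Of markers of other cells the tissue could hold, 0 of 5 macrophage and microglia genes were marked in any list, 2 of 5 endothelial and 2 of 5 red cell genes were marked in all 4, and 4 or 5 of 5 mesenchyme genes were marked in each.

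Where a Hox promoter did carry the mark, its sequence is shown here next to promoters of the same kind that did not. RefSeq promoters on GRCm38.p6 (250 bases before to 50 bases after the annotated start) were matched by symbol for 22 of the 38 genes, and 4 of the 24 matched promoters had at least 1 base under a peak. Each line below is a promoter written 5′ to 3′ on the strand of its gene with every CG dinucleotide in capitals, since dense CG is the sequence feature most closely tied to H3K4me3. Hoxd1 (chr2:74762730-74763029, plus strand) is the Hox promoter marked in the most regions. Hoxd9 (chr2:74697513-74697812, plus strand), Hoxd12 (chr2:74674763-74675062, plus strand) and Hoxb1 (chr11:96365508-96365807, plus strand) were each partly covered in 1 list. Hoxa5 (chr6:52204538-52204837, minus strand), Hoxa13 (chr6:52260831-52261130, minus strand) and Hoxd13 (chr2:74667975-74668274, plus strand) are CG-dense promoters that no peak touched.
Hoxd1: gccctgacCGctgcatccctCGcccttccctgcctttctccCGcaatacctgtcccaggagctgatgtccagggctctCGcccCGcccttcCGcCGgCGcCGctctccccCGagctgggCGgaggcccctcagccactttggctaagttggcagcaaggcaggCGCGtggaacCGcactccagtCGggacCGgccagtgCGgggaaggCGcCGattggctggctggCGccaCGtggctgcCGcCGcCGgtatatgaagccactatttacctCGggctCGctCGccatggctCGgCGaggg
Hoxd9: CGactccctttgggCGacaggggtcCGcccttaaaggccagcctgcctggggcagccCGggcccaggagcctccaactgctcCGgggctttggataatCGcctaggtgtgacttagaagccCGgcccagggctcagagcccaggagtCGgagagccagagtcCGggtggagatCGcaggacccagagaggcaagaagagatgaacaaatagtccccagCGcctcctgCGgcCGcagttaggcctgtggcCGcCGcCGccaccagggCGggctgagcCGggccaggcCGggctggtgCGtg
Hoxd12: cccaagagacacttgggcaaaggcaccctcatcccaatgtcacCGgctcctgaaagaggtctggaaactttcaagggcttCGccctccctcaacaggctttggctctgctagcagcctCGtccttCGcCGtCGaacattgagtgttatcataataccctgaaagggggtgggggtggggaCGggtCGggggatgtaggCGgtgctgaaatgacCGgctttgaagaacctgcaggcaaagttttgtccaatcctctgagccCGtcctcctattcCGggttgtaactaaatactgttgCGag
Hoxb1: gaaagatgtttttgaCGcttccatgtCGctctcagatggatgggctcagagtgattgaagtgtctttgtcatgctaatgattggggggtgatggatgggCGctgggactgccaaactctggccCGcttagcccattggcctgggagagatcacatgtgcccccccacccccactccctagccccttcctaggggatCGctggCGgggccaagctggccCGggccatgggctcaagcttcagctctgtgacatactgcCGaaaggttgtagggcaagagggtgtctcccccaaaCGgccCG
Hoxa5: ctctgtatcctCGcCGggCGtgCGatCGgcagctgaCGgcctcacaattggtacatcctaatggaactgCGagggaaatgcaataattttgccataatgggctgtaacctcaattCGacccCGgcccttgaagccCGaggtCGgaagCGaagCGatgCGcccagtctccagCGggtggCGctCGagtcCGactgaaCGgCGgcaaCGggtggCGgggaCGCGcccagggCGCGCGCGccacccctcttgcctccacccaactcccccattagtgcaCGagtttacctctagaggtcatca
Hoxa13: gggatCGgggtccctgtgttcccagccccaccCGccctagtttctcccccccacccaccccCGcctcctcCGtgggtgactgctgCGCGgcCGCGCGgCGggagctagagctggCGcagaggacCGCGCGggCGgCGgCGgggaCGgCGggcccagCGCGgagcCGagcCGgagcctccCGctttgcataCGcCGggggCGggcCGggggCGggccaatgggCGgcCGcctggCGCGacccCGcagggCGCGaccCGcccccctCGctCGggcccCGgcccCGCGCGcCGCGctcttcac
Hoxd13: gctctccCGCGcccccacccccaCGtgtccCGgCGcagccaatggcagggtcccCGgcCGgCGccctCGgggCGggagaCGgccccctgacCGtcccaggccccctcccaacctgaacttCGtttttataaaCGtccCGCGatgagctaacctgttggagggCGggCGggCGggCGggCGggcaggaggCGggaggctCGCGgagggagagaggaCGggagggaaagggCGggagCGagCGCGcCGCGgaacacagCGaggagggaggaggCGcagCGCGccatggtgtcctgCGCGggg

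The unmarked promoters shown were picked for dense CG, so this set cannot tell whether the number of CG goes with the mark. Other promoters with no base under a peak held few CG, such as Hoxd4 with 4. Hoxd1 held 29 CG, a number that 12.9% of the 32851 RefSeq promoters reach, and 300 of its 300 bases lay under the LGE peak, 291 under the CGE peak and 300 under the CTX peak. Hoxa5 also held 29 CG and had 0 bases under a peak in any list. Hoxd9 held 20 CG with 90 bases under the CGE peak, Hoxd12 held 13 CG with 108 bases under the LGE peak, and Hoxb1 held 10 CG with 39 bases under the LGE peak. Among the matched promoters the most CG-dense, Hoxa13 with 45 CG (reached by 1.93% of all promoters) and Hoxd13 with 37 CG (reached by 5.58%), had none. Hoxa4, which has no promoter in the RefSeq table, held 125 CG in 1 kb around its principal TSS, against 126 for Hoxa13 and 117 for Hoxd13, and had a peak in CGE. The median over the 24 Hox promoters was 14.5 CG and over all promoters it was 7.00, and 94.6% of all promoters held at least 1 CG.

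Few Hox genes were marked in any region, and fewer than among protein-coding genes at large. In MGE 2 of 38 Hox genes (5.26%, 95% interval 1.46 to 17.3) had a peak within 2 kb of a TSS, against 62.2% of all protein-coding genes. In LGE 7 of 38 did (18.4%, 9.22 to 33.4), against 62.3%. CGE had the most, with 11 of 38 (28.9%, 17.0 to 44.8) against 62.7%, and CTX the fewest, with 1 of 38 (2.63%, 0.466 to 13.5) against 61.5%. No Hox gene was marked in all 4 lists (0 of 38, upper bound of the interval 9.18%), whereas 59.4% of protein-coding genes were. No list marked 22 of the 38 (57.9%, 42.2 to 72.1), against 35.0% of protein-coding genes. The median number of bases covered within 2 kb of a TSS was 0 over the 38 genes in every list, against 665 (MGE), 978 (LGE), 1069 (CGE) and 681 (CTX) over protein-coding genes. Of the 38 genes 23 have several annotated TSSs, and with the starts of principal transcripts alone Hoxa7 in MGE and Hoxa9 and Hoxc6 in CGE were no longer counted.

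**Figure D1:**
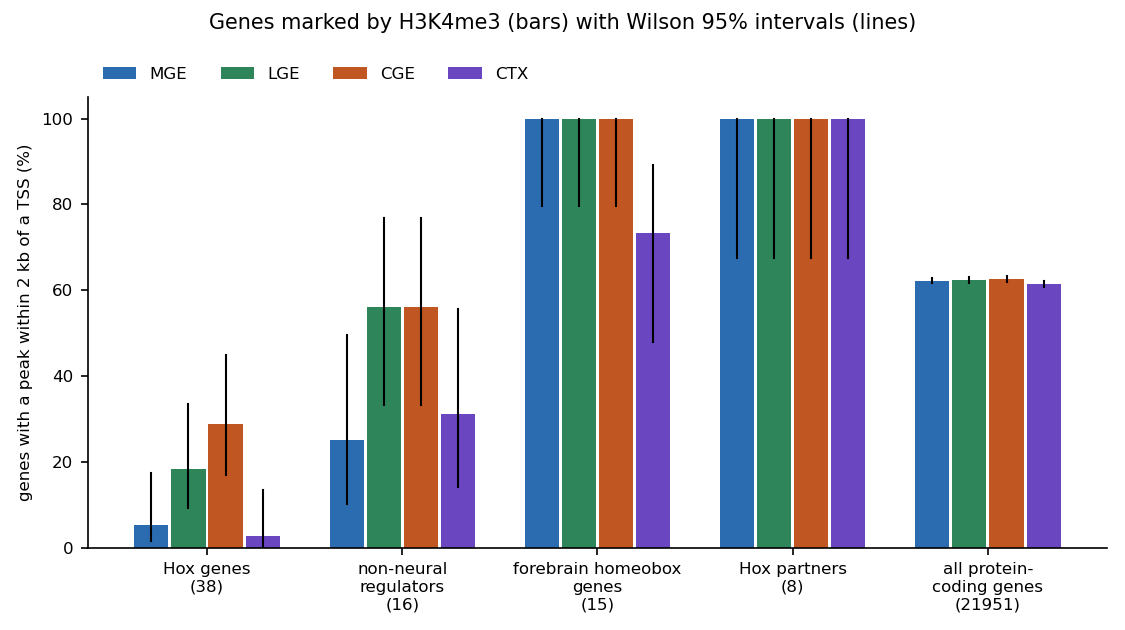
Percent of genes with an H3K4me3 peak within 2 kb of a TSS (bars) with Wilson 95% intervals (lines) in MGE, LGE, CGE and CTX, for 38 Hox genes, 16 regulators of non-neural lineages, 15 forebrain homeobox genes, 8 Hox partner genes and 21951 protein-coding genes. The regulators of non-neural lineages include Eomes, also a cortex marker. The Hox bars run from 2.63% in CTX to 28.9% in CGE and lie below the bars of the same region in every other group.

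The forebrain's own homeobox genes and the cofactors of Hox proteins stood at the other end. All 8 Hox partners analysed here, which belong to the Pbx, Meis and Pknox families of homeodomain proteins and bind DNA together with Hox proteins, had a peak in all 4 lists. Their median number of bases covered within 2 kb of a TSS was 1758 (MGE), 2429 (LGE), 2520 (CGE) and 2018 (CTX). Of 15 forebrain homeobox genes, among them the Dlx, Lhx, Emx and Otx genes, 15 were marked in each eminence and 11 in CTX. Of 16 regulators of non-neural lineages, 5 were marked in CTX, 4 in MGE, 9 in LGE and 9 in CGE. These counts include Eomes, which was also counted as a cortex marker above and had a peak in every list. The difference in share between these lists and the Hox genes was not tested.

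The ParaHox genes are the evolutionary sisters of the Hox clusters, and the Cdx genes among them regulate Hox expression in the trunk. Gsx2, which patterns the ganglionic eminences, was the only gene of this list of 6 marked in all 4 lists, with 1910, 2189, 2209 and 356 bases covered in MGE, LGE, CGE and CTX. Gsx1 was covered over 1801, 1176 and 2087 bases in MGE, LGE and CGE and had no peak in CTX. Pdx1, the pancreatic regulator, had 373 bases in LGE and 1226 in CGE, and Cdx2 had 1034 in LGE and 182 in CTX. Cdx1 and Cdx4 had no peak. Evx1 and Evx2, the even-skipped homologues beyond the posterior ends of Hoxa and Hoxd, were each marked in 1 list, Evx1 with 136 bases in CGE and Evx2 with 262 bases in LGE.

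The lists with the most Hox peaks were those whose promoter peaks had the highest peak-caller score. At protein-coding TSSs the median −log10 q, the authors' significance of a peak, was 118 in CGE, 56.1 in LGE, 17.8 in CTX and 14.2 in MGE. The part of this difference, or of sequencing depth, in the count of Hox genes was not tested. The order of LGE and CGE, and of MGE and CTX, also depended on the length of the lists. With each list limited to the 17284 peaks of highest −log10 q, as many as LGE had, the counts were 7 in both LGE and CGE and 1 in both MGE and CTX. Limited to as many peaks of highest fold, the counts were 1 (MGE), 7 (LGE), 8 (CGE) and 1 (CTX). At a −log10 q of at least 2 the counts were 1 (MGE), 3 (LGE), 6 (CGE) and 1 (CTX). That cutoff acted unequally, keeping 73.0% (MGE), 96.2% (LGE), 96.8% (CGE) and 88.2% (CTX) of all peaks. The share of all protein-coding genes marked was not recomputed under these limits.

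Within the clusters the peaks were sparse and short. The 4 spans, each from the lowest to the highest coordinate of its genes, were Hoxa at chr6:52162417-52260880 (98.5 kb, 10 genes), Hoxb at chr11:96194316-96368256 (174 kb, 10 genes), Hoxc at chr15:102921103-103036852 (116 kb, 9 genes) and Hoxd at chr2:74668310-74765142 (96.8 kb, 9 genes) on GRCm38. Over these 485 kb the lists held 2 (MGE), 10 (LGE), 14 (CGE) and 2 (CTX) peaks. Of these 28 peaks, 20 lay within 2 kb of a Hox TSS, 7 lay over a TSS and 8 lay farther than 2 kb from any. The running numbers of the peaks had no gap across the spans in any list.

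**Figure D2:**
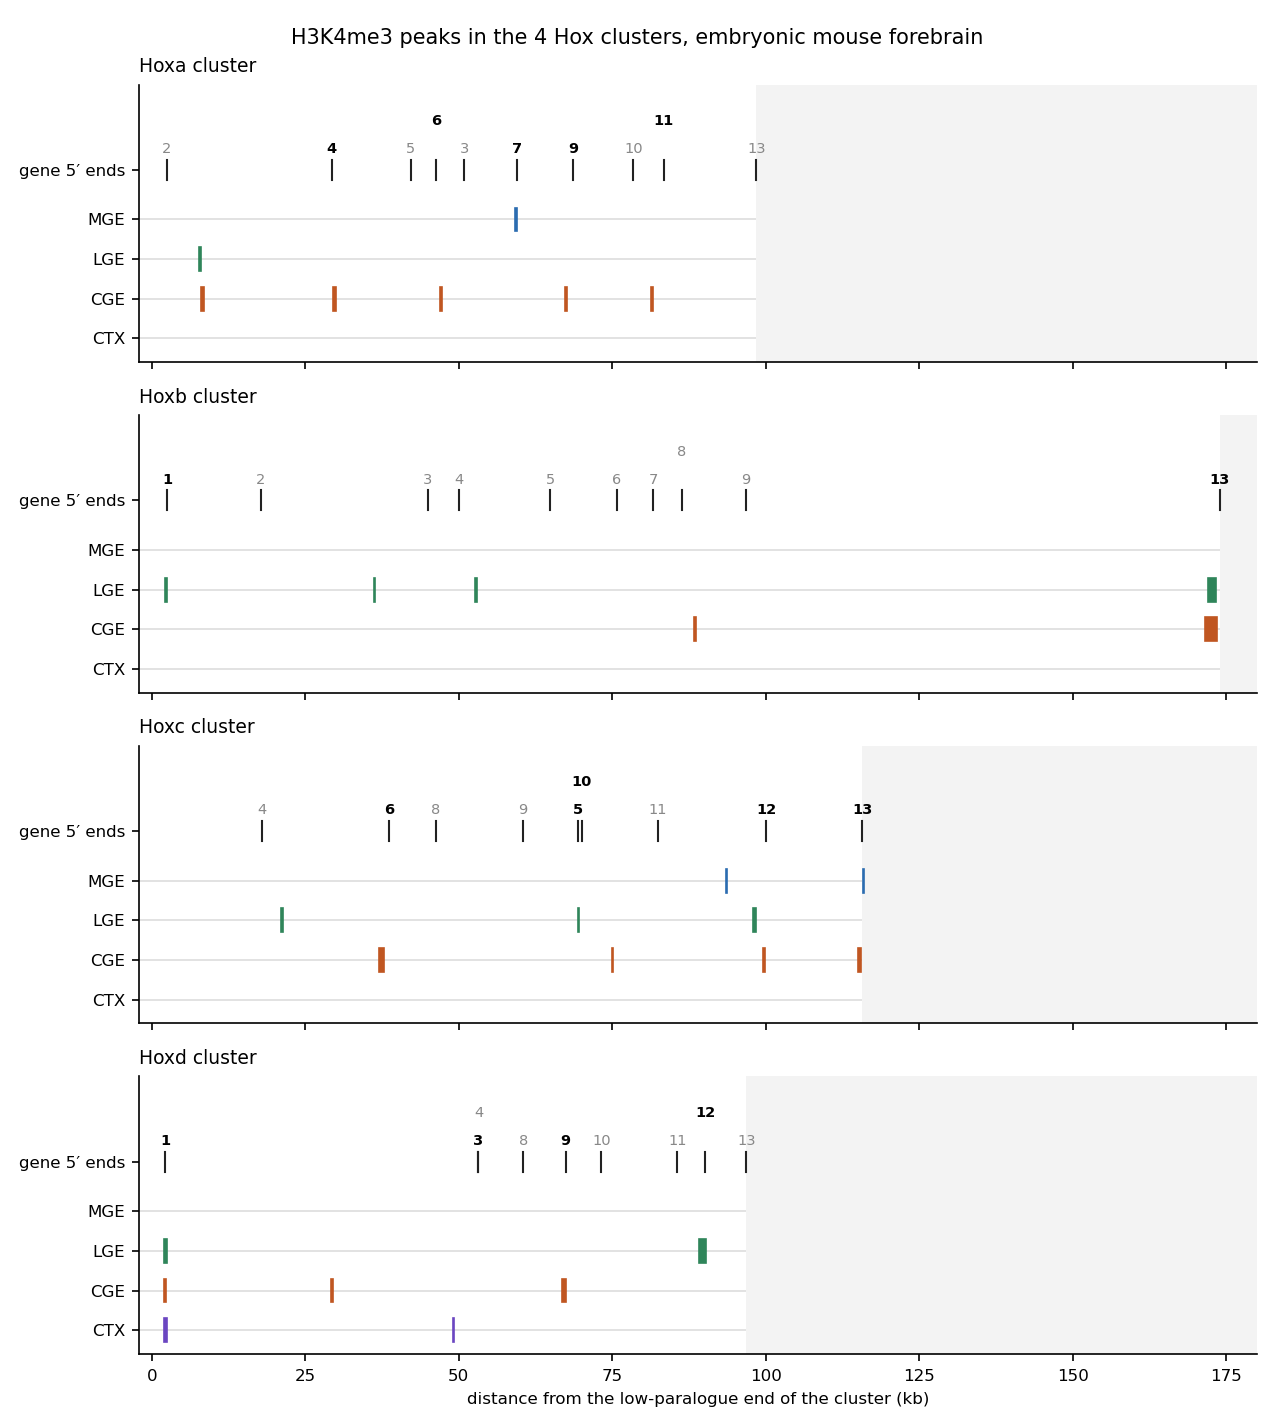
Positions of H3K4me3 peaks (coloured bars, to scale with a thin outline) in MGE, LGE, CGE and CTX along the Hoxa, Hoxb, Hoxc and Hoxd clusters, in kb from the end with the low paralogue numbers; grey areas lie beyond the cluster. Numbers above the ticks are the paralogues at the 5′ ends of the genes, bold where a list had a peak within 2 kb of any TSS; annotated upstream transcripts place the ticks of Hoxa3, Hoxc5, Hoxd3 and Hoxd4 away from their paralogue order. CTX has peaks in Hoxd alone and MGE in Hoxa and Hoxc alone.

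The covered share of the clusters was 0.104% (MGE), 1.05% (LGE), 1.54% (CGE) and 0.128% (CTX). The same lists covered 0.628%, 0.792%, 0.861% and 0.611% of the genome, so the clusters lay below the genome in MGE and CTX and above it in LGE and CGE. The Hox clusters are dense in genes, and 78 bins of 100 kb that held at least 9 starts of protein-coding genes had median shares of 5.42%, 7.31%, 7.98% and 5.57%. Between 6 (MGE) and 11 (CGE and CTX) of the 78 bins were at or below the share of the Hox clusters. By cluster, Hoxa was covered over 0.360% in MGE, 0.443% in LGE and 1.94% in CGE, and Hoxb over 1.22% in LGE and 1.34% in CGE. Hoxc was covered over 0.130% in MGE, 0.979% in LGE and 1.50% in CGE, and Hoxd over 1.47% in LGE, 1.53% in CGE and 0.639% in CTX. All other combinations were at 0. The 200 kb on either side of each span gave a second comparison. Peak numbers are missing from the lists at the starts of 4 genes in the posterior flank of Hoxb, so the flank shares may be too low. As deposited, the 4 clusters together lay above these flanks in CGE (1.54% against 1.45%), a difference too small to rely on given those gaps. They lay below them in MGE (0.104% against 0.905%), CTX (0.128% against 0.718%) and LGE. Hoxa was covered more than its own flanks in CGE (0.791% in the flanks). Hoxd was covered more than its own in LGE (0.677%), CGE (0.629%) and CTX (0.481%). Every other combination of cluster and list lay below its flanks.

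**Figure D3:**
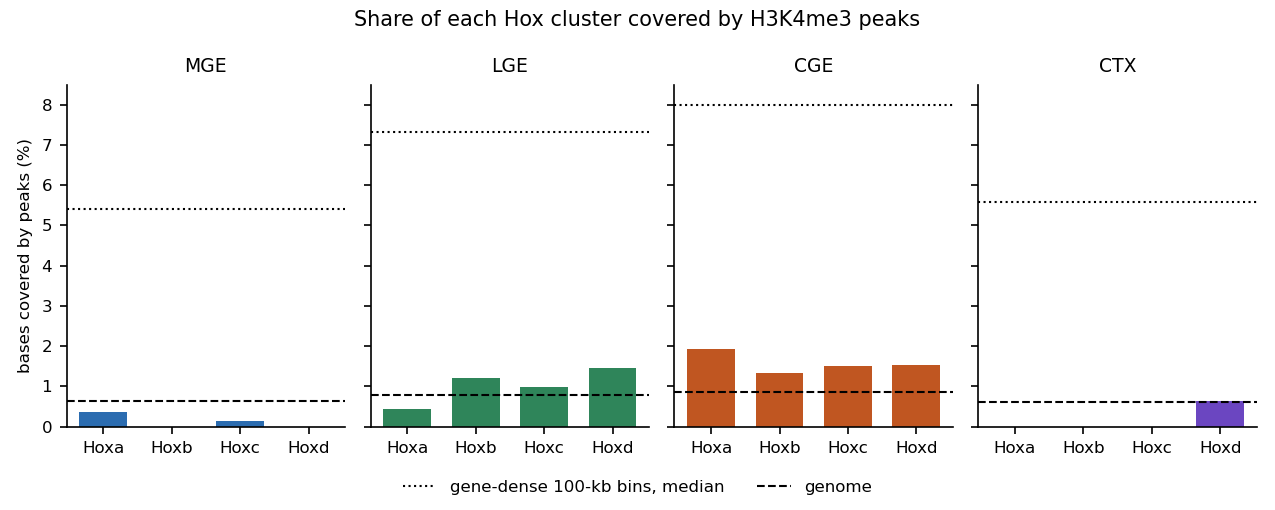
Percent of bases under peaks in each Hox cluster (bars) for MGE, LGE, CGE and CTX, with the share of the genome covered by the same list (dashed line) and the median share of 78 gene-dense bins of 100 kb (dotted line). No bar passes 1.94% and the dotted lines lie between 5.42% and 7.98%.

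The peaks were also weak. The median width of the peaks in the spans was 252 bp (MGE), 364 (LGE), 432 (CGE) and 310 (CTX), against 878, 1278, 1363 and 932 bp for the peaks of the same lists at protein-coding TSSs. Only 3 of the 28 were 1 kb or wider, at Hoxb13 (LGE and CGE) and Hoxd12 (LGE). Their −log10 q ran from 1.38 to 7.99, where the peaks at protein-coding genes had a 5th percentile of 1.55 (MGE), 3.57 (LGE), 4.40 (CGE) and 2.01 (CTX). Every LGE peak in the spans (at most 3.01) lay under that percentile, as did 12 of 14 in CGE and both in MGE. The exceptions in CGE were Hoxa4 (6.47) and Hoxd1 (7.99), and in CTX both peaks passed it (2.82 and 4.43).

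**Figure D4:**
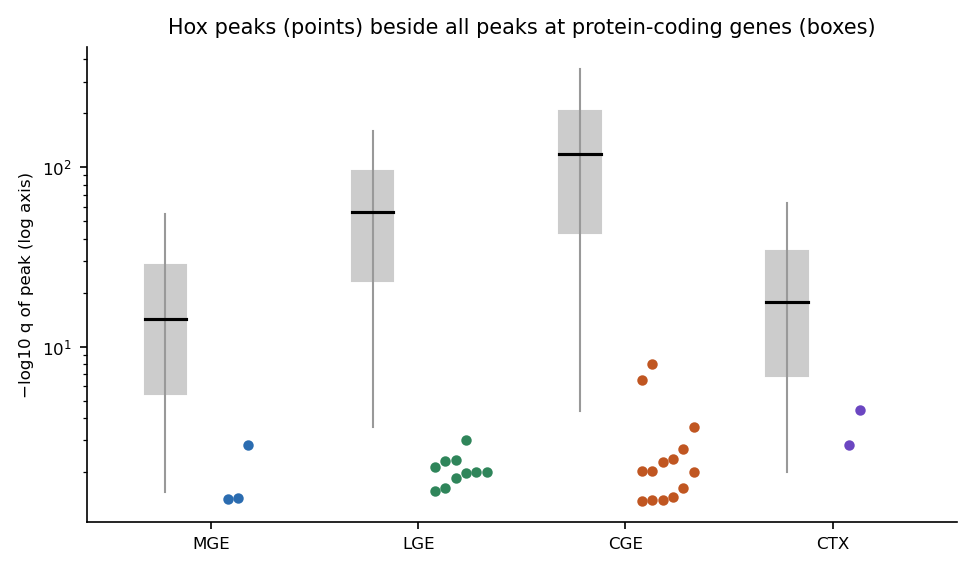
−log10 q of each peak in a Hox span or within 2 kb of a Hox TSS (points) on a log axis, beside all peaks within 2 kb of a protein-coding TSS of the same list (black line, median; box, 25th to 75th percentile; grey line, 5th to 95th percentile). The Hox points run from 1.38 to 7.99 and lie below the box of their list in all 4 regions.

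Hoxd1, the most anterior gene of its cluster, was the Hox gene marked in the most regions. Its peak lay over the TSS in LGE (343 bp, −log10 q of 1.97, 3.23-fold over the background estimated by the peak caller), in CGE (438 bp, 7.99, 4.28-fold) and in CTX (447 bp, 4.43, 4.93-fold), and MGE had none. The 3 peaks joined into chr2:74762730-74763176, which overlaps 197 bases of exon of Hoxd1 and had a CpG ratio of 0.878 (CG dinucleotides observed over those expected from its C and G content). Haglr, the long noncoding RNA that starts on the other strand from the same promoter, was marked by the same peaks in the same 3 lists, and the mark cannot be assigned to either gene. Ranked within its own list by −log10 q, the CTX peak stood at percentile 35.6, the CGE peak at 19.3 and the LGE peak at 3.64. Other Hox peaks that ranked above 19.3 in their own lists were the MGE peak of Hoxc13 at percentile 36.4 and a second CTX peak, of 172 bp, at 23.4.

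Hoxb13, the posterior end of Hoxb, held the widest Hox peaks, and their scores were low. The LGE peak was 1221 bp wide, at percentile 54.0 of the widths and 3.81 of the −log10 q of its list, with 3.24-fold enrichment. The CGE peak was 2032 bp wide, at percentiles 87.3 and 3.43, with 2.70-fold enrichment. Both lay downstream of the TSS over exon and intron, the CGE peak from 406 bases on, and MGE and CTX had no peak. Within 2 kb of the TSS 1221 bases were covered in LGE and 1595 in CGE, and 8372 and 5477 protein-coding genes had more covered bases in those lists. The joined interval had a CpG ratio of 0.363.

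The remaining Hoxd genes with a peak had it in 1 list each. Hoxd12 had an LGE peak of 1084 bp over its TSS (3.06-fold, −log10 q of 1.84). Hoxd9 had a CGE peak of 601 bp over its TSS (3.18-fold, 3.58), with 66 CG dinucleotides and a CpG ratio of 0.963. Hoxd3 had a CGE peak of 441 bp ending 486 bases upstream of a transcript start within the gene (2.48-fold, 1.39). Hoxd4, Hoxd8, Hoxd10, Hoxd11 and Hoxd13 had no peak in any list.

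In Hoxa 5 of 10 genes were marked, each in 1 list, and none in LGE or CTX. Hoxa4 had the strongest of these peaks, 442 bp in CGE (3.95-fold, −log10 q of 6.47) that ended 169 bases upstream of its TSS. Hoxa6 (304 bp), Hoxa9 (340 bp) and Hoxa11 (293 bp) also had a peak in CGE, each between 2.49-fold and 2.51-fold with a −log10 q of 1.38 to 1.45. Hoxa7 had a peak of 354 bp in MGE (3.36-fold, 1.43) over the start of an upstream transcript, 4033 bases from the start of its principal transcript. Hoxa2, Hoxa3, Hoxa5, Hoxa10 and Hoxa13 had none. An interval within 2 kb of no Hox TSS, chr6:52170081-52170941, lay over an exon of Hoxa3 and was called in LGE (436 bp, −log10 q of 2.30) and in CGE (530 bp, 1.63).

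In Hoxc 5 of 9 genes were marked. Hoxc13 had a peak of 164 bp in MGE (4.17-fold, −log10 q of 2.82) that lay just upstream of the cluster span, and a different peak of 425 bp in CGE downstream of the TSS (2.82-fold, 2.37). Hoxc12 had a peak of 584 bp in LGE (3.16-fold, 2.34), of which 351 bp lay within the window, and another of 243 bp in CGE (2.78-fold, 2.28), and these did not overlap. The CGE peak of Hoxc12 stood at 275 bases downstream of the TSS and had the highest CpG ratio of the Hox intervals, 0.991. Hoxc6 had a CGE peak of 815 bp downstream of the start of an upstream transcript (2.69-fold, 2.00). Hoxc5 and Hoxc10 shared an LGE peak of 269 bp (3.25-fold, 2.00), because an annotated Hoxc5 transcript starts next to Hoxc10, and Hoxc5 had a further LGE peak of 280 bp (3.46-fold, 3.01). Hoxc4, Hoxc8, Hoxc9 and Hoxc11 had none.

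Hoxb was the cluster with the fewest marked genes. Hoxb1, expressed in rhombomere 4 of the hindbrain, had an LGE peak of 386 bp that began 17 bases downstream of its TSS (3.04-fold, −log10 q of 1.56), and Hoxb13 was marked as described above. The 8 genes between them, Hoxb2 to Hoxb9, had no peak within 2 kb of a TSS in any list. LGE had short peaks of 257 bp in an intron of Hoxb3 and 251 bp upstream of Hoxb4, and CGE had a peak of 301 bp that ended 2015 bases upstream of Hoxb8. MGE and CTX had no peak anywhere in the 174 kb.

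Marked genes occurred at both ends of the paralogue order. Among anterior genes (paralogues 1 to 4) 1 of 11 was marked in CTX, 0 in MGE, 2 in LGE and 3 in CGE. Among central genes (5 to 8) the counts of 11 were 0 (CTX), 1 (MGE), 1 (LGE) and 2 (CGE). Among posterior genes (9 to 13) the counts of 16 were 0 (CTX), 1 (MGE), 4 (LGE) and 6 (CGE). The intervals of these shares overlap widely, for example 9.75 to 56.6% for anterior, 5.14 to 47.7% for central and 18.5 to 61.4% for posterior genes in CGE, so no order along the clusters could be read at these numbers. The highest paralogue number marked was 13 in MGE, LGE and CGE and 1 in CTX. Over all protein-coding genes, 61.5% (CTX) to 62.7% (CGE) were marked. At a −log10 q of at least 2, CGE lost Hoxd3, Hoxa6, Hoxc6, Hoxa9 and Hoxa11. LGE then lost Hoxb1, Hoxd1, Hoxb13 and Hoxd12, and MGE lost Hoxa7. Of the genes analysed here, both members of paralogue group 12 (Hoxc12 and Hoxd12) and both of group 1 (Hoxb1 and Hoxd1) were marked in some list, and none of groups 2 and 8.

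The regions rarely shared a Hox peak. The 28 peaks joined into 24 intervals, of which 21 (87.5%) were called in 1 list, 2 in 2 lists, 1 in 3 lists and 0 in all 4. Over the whole genome 37.0% of 29783 intervals were called in 1 list and 49.8% in all 4. Of the bases covered by either list in the clusters, LGE and CGE shared 15.2% (83.4% over the genome), LGE and CTX 6.37% (62.4%) and CGE and CTX 5.73% (58.9%). MGE shared no covered base with any other list in the clusters, against 57.7 to 67.2% over the genome. The genome values include peaks of any score. By −log10 q the Hox peaks stood at median percentiles of 15.7 (MGE), 3.83 (LGE), 3.37 (CGE) and 29.5 (CTX) of their lists. Sharing among other peaks of like score was not computed.

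By place, 13 of the 24 intervals overlapped an exon of a Hox gene, 7 lay in introns and 4 between genes. Relative to the nearest start of a principal transcript 3 lay over it, 9 upstream and 12 downstream. Their CpG observed-over-expected ratio ran from 0.132 to 0.991 with a median of 0.552, and 10 of 24 reached both a GC content of 50% and a ratio of 0.6.

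Most Hox promoters are CpG-rich, and CpG-rich promoters are nearly all marked in forebrain, so the clusters were compared with genes of the same kind. In 1 kb around the principal TSS, 23 of 38 Hox genes had a GC content of at least 50% and a CpG ratio of at least 0.6. The same was true of 10095 protein-coding genes, of which 94.4% were marked in CTX, 94.7% in MGE, 95.4% in LGE and 95.8% in CGE. Of the 23 CpG-rich Hox genes, 8 (34.8%) were marked in CGE, 2 (8.70%) in MGE, 2 (8.70%) in LGE and 1 (4.35%) in CTX. No list marked 14 of the 23 (60.9%), against 3.63% of all CpG-rich genes. The Hox genes made up 0.228% of the CpG-rich genes and 14 of the 366 of them (3.83%) with no peak in any list. Hox genes with a peak had a median CpG ratio of 0.669 (16 genes) and those without one 0.704 (22 genes), and the ranges of 0.428 to 0.918 and 0.257 to 0.995 overlapped.

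**Figure D5:**
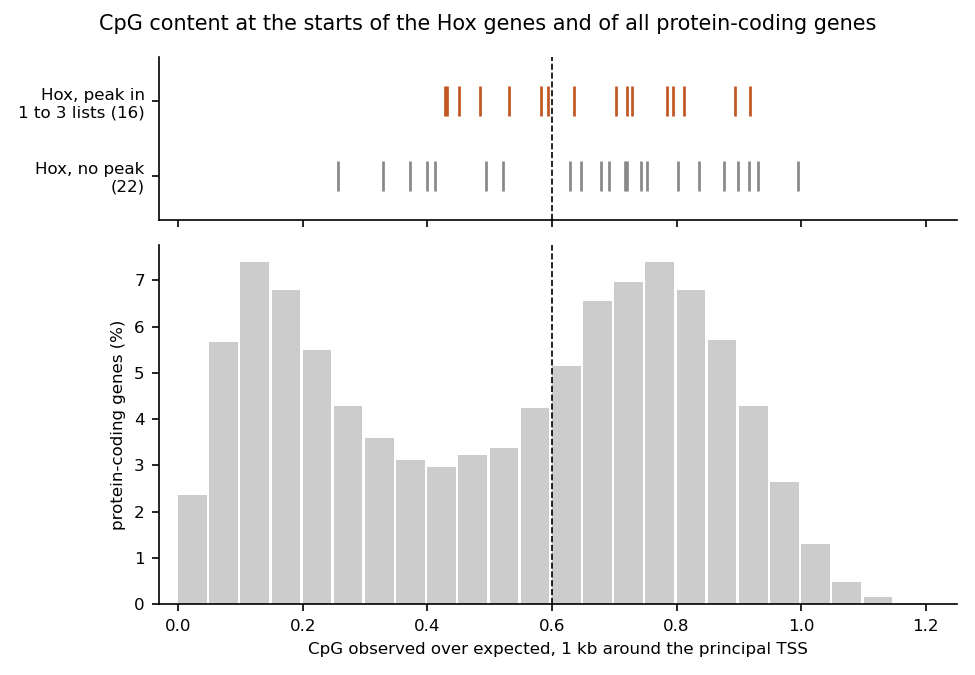
CpG observed-over-expected ratio in 1 kb around the principal TSS. Lower panel, percent of protein-coding genes per bin of 0.05; upper panel, each of 16 Hox genes with a peak in 1 to 3 lists and 22 with none (ticks); the dashed line marks 0.6. The ticks of the genes with a peak lie within the range of those without, with medians of 0.669 and 0.704.

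The clusters also hold RNA genes, among them microRNAs that repress Hox transcripts. The mature forms printed here have their seed, bases 2 to 8, in capitals; they are shown because the members of a seed family lie in different clusters, and only some lay near a peak.
miR-10a-5p: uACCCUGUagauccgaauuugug
miR-10b-5p: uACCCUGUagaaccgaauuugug
miR-196a-5p: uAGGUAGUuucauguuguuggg
miR-196b-5p: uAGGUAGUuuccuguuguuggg
miR-615-3p: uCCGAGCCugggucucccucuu

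miR-10a-5p and miR-10b-5p share the seed ACCCUGU, and miR-196a-5p and miR-196b-5p share AGGUAGU. The hairpin of Mir196b (chr6:52230081-52230165, minus strand), upstream of the principal Hoxa9 start, was overlapped by the CGE peak of 340 bp assigned to Hoxa9. The hairpin of Mir10a (chr11:96317165-96317274, plus strand), upstream of Hoxb4, lay 1567 bases from an LGE peak. Mir615, within Hoxc5, had its 3p arm 478 bases from the LGE peak of 280 bp. Mir10b, Mir196a-1 and Mir196a-2 had no peak within 2 kb of their start in any list.

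Over 38 annotated genes inside the spans that do not code for protein, 2 were marked in CTX, 0 in MGE, 4 in LGE and 7 in CGE. None was marked in all 4 lists. The share over all such genes of the annotation was not computed, so these counts cannot be called low or high. Haglr was the only gene among them marked in 3 lists, and Hoxaas2, next to Hoxa3, was marked in LGE and CGE. Hoxd3os1 was marked in CTX alone, by a peak of 172 bp. Hotair, the noncoding RNA of Hoxc, and Hottip, beyond the posterior end of Hoxa, had no peak. Because the peaks carry no strand, those within 2 kb of both a Hox gene and an antisense RNA cannot be assigned to either.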

How the data were processed

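H3K4me3 CUT&Tag was analysed from 4 deposited lists of broad peaks, 1 per region. The authors aligned reads to GRCm38/mm10 with Bowtie2, dropped PCR duplicates (Picard) and reads in blacklisted regions, merged replicates and called peaks with MACS; the version and threshold are not given in the sources used here. The deposited columns used were peak start and end, the fold enrichment (a ratio to the caller's background), and the authors' −log10 q. The −log10 q grows with depth, which is unknown per peak, so values were ranked within a list. Between 31 (CTX) and 64 (CGE) peak numbers are missing from each list.

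A gene was marked where a peak overlapped by at least 1 bp a window of 2 kb either side of any GENCODE M21 TSS. The covered share is the bases of a span under peaks. The CpG ratio is CG count × length / (C count × G count). Python 3.11.15, numpy 2.4.6, scipy 1.17.1 and matplotlib 3.10.9 were used, and interval arithmetic was tested on simulated data (200 of 200 runs matched). Sequences are from RefSeq, GRCm38.p6. The members and lists were chosen with earlier results of these data known. All members were accounted for, with values in every list for those with a peak; the other genes named were Hox partners, ParaHox, Evx and RNA genes of the spans and cell type markers. 1 further Hox gene and 2 genes of the other lists are not reported here.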

Additional observations from a re-analysis of the deposited data

How the results depend on the processing

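Of 140 recomputed values 106 stayed within the limits set (the same value, or a count within 1.5 times) and 34 moved. No setting gave a Hox gene marked in all 4 lists, but only the window of 5 kb could have raised that count. The other settings narrow the windows, starts or lists, so their values of it were fixed in advance and are among the 106. For genes marked, a window of 5 kb gave 11 in LGE and 3 in CTX. The same window gave 16 in CGE and 3 in MGE, which stayed within the limits. The share of all protein-coding genes marked was not recomputed under any of these settings. A window of 2 kb upstream alone gave 4 in LGE and 6 in CGE, with the highest paralogue marked at 12 in LGE and 9 in CGE. With 5 kb the highest paralogue in CTX was 4. A −log10 q of at least 2 gave 1 in MGE, 3 in LGE (highest paralogue 12) and 6 in CGE. Lists limited to the 17284 peaks of highest −log10 q gave 1 in MGE and 7 in CGE. These equalled the 1 in CTX and 7 in LGE, so MGE tied with CTX and CGE with LGE. LGE and CGE stayed above MGE and CTX. Lists limited by highest fold gave 1 in MGE and 8 in CGE. A minimum width of 243 bp gave 1 in MGE, with the highest paralogue 7. Starts of principal transcripts, an alternative chosen after seeing the data, gave 1 in MGE.

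The covered share in MGE was 0% at a −log10 q of at least 2 and in both limited lists, 0.0730% at 243 bp and 0.173% with 5 kb added to the spans. It was 0.375% (q) and 1.13% (5 kb) in LGE, and 0.0922% (243 bp) and 0.142% (5 kb) in CTX. In CGE it was 0.977% (q), 1.15% (limited by q), 1.22% (limited by fold) and 1.62% (5 kb). At a minimum of 243 bp the median widths were 354 bp (MGE) and 447 bp (CTX); LGE had 280 bp at a −log10 q of at least 2, and CGE 438 bp limited by q. In MGE no peak in the spans was left for a width in the q and limited-list settings. No paired analysis was possible because replicates were merged before peaks were called, and for the same reason no replicate could be left out. Short, weak peaks near the calling threshold carry most of these values, and the number of reads behind each peak is unknown.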

Other observations

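Peaks shared by all 4 regions lay within 200 kb of the clusters, but outside them. Among 11 protein-coding genes that start within 200 kb of a span, 6 were marked in MGE and 7 in each of LGE, CGE and CTX. In all 4 lists 6 were marked. These shares, 54.5% in MGE and 63.6% in each other list, were near the 61.5 to 62.7% over all protein-coding genes. The share in all 4 lists was 54.5%, against 59.4%. Igf2bp1, 188 kb beyond the posterior end of Hoxb, had 2725, 3861, 3864 and 3137 bases covered in MGE, LGE, CGE and CTX. Lnpk, 88.9 kb beyond the posterior end of Hoxd, had 1097, 1427, 1448 and 1036 bases, and Mtx2, 60.7 kb beyond the other end, had 761, 1018, 1069 and 727 bases. Evx2, which lies between Lnpk and Hoxd at 8.75 kb from the span, was marked in LGE alone. A further 4 of 15 flanking genes start where a peak number is missing from a list and were left out.

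Between Hoxa13 and Evx1, 45.1 kb from the Hoxa span and 7108 bases from the Evx1 start, an interval of 449 bp (chr6:52305942-52306390) was called in all 4 lists. Its peaks were 254, 412, 432 and 299 bp wide, with a −log10 q of 1.81 (MGE), 4.73 (LGE), 10.5 (CGE) and 2.13 (CTX). No interval inside the 4 spans was called in all 4 lists.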
